A study of Mus musculus with 6 samples.

Results

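The globin genes and 2 other red cell genes were followed in RNA-seq libraries of mouse cranial base, the cartilage that forms the floor of the skull. Of 43496 entries of the deposited gene table, the members were those whose symbol was Hba-a1, Hba-a2, Hba-x, Hbb-b1, Hbb-b2, Hbb-bh1, Hbb-y, Alas2 or Slc4a1. Of these 9 symbols 7 were matched, and Hbb-b1 and Hbb-b2 are not analysed here. Hbb-bs and Hbb-bt, the adult beta-globin genes of the haplotype that C57BL/6J mice carry, were read in their place and are not members. There were 3 Memo1 mutant embryos, whose allele was made with the chemical mutagen ENU, and 3 control embryos. All 6 were at the embryonic stage E15.5 and of the C57BL/6J strain, with 1 library each. The labels give neither the base change in Memo1 nor the Memo1 alleles of the controls.

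Haemoglobin is a tetramer of alpha-like and beta-like globin chains, each with a haem group. The first red cells of a mouse embryo come from the yolk sac and enter the circulation as nucleated primitive cells, which carry embryonic chains. These are zeta from Hba-x, epsilon-y from Hbb-y and beta-h1 from Hbb-bh1. Later red cells come from the fetal liver, carry the adult alpha and beta chains and gradually replace the primitive cells, so the mix of globin mRNA in a tissue follows its blood. Within primitive cells beta-h1 is expressed early and epsilon-y later. In bulk tissue fewer red cells and less RNA per red cell cannot be told apart.

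The libraries were of unequal quality. Mutant 1 listed 30811 entries at 0, where each of the remaining 5 libraries listed 19787 to 20594, and its log2 values correlated with theirs at r = 0.748 to 0.762, where those 5 correlated among themselves at 0.968 to 0.981. From the steps between low values, depth was 115.7% and 152.6% of that of control 1 in mutants 2 and 3, and 80.4% and 92.3% in controls 2 and 3; no depth could be read for mutant 1. Of 9161 entries with a mean of 5 to 50 FPKM in the other 5 libraries, 12.0% were listed at 0 in mutant 1, against 0.044% in mutant 2. Of 5152 entries with 0.1 to 1 FPKM it was 90.1%, against 5.978% in mutant 2. FPKM is a fragment count scaled to transcript length and to the mapped fragments of the library, so levels can be compared between genes. Mutant 3 had 113.6 FPKM of Xist, against at most 0.0942 FPKM elsewhere, so it was the only female. Memo1 itself had 25.4, 20.1 and 22.2 FPKM in mutants 1, 2 and 3, against 19.1, 23.1 and 21.9 FPKM in controls 1, 2 and 3, so its mRNA level does not check the labels of this allele. Of 10 cartilage markers, 10 were above 0 in every library, with a summed level of 4999.4 to 5756.0 FPKM in mutants and 3402.6 to 4461.8 FPKM in controls. The 8 liver plasma protein genes summed to 26.3 to 36.6 FPKM in mutants and 35.8 to 102.6 FPKM in controls. Most of this was Trf, with 26.3 to 34.8 FPKM in mutants and 35.0 to 42.8 FPKM in controls, and in control 2 also Ttr with 58.3 FPKM. Alb reached at most 0.109 FPKM and Afp 0.0364 FPKM in any library.

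Adult-type globins made up nearly all globin mRNA at this stage. Summed over Hba-a1, Hba-a2, Hbb-bs and Hbb-bt, the level was 2748.7, 2997.5 and 2623.7 FPKM in mutants 1, 2 and 3, against 3211.0, 3591.4 and 2959.6 FPKM in controls 1, 2 and 3. The embryonic globins together reached 32.0, 32.9 and 46.8 FPKM in the mutants, against 16.2, 29.1 and 16.2 FPKM in the controls. By mean level over all 6 libraries Hbb-bs stood first at 1308.2 FPKM. Hba-a1 at 640.7 FPKM and Hba-a2 at 615.2 FPKM came next and overlapped across libraries, and Hbb-bt followed at 457.9 FPKM. Hbb-y at 19.9 FPKM and Alas2 at 19.6 FPKM overlapped as well. Hba-x had 8.56 FPKM, and Slc4a1 and Hbb-bh1 were lower still, each listed at 0 in mutant 1. All globins together took 0.49% to 0.595% of the FPKM of a mutant library and 0.572% to 0.698% of that of a control library.

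**Figure D1:**
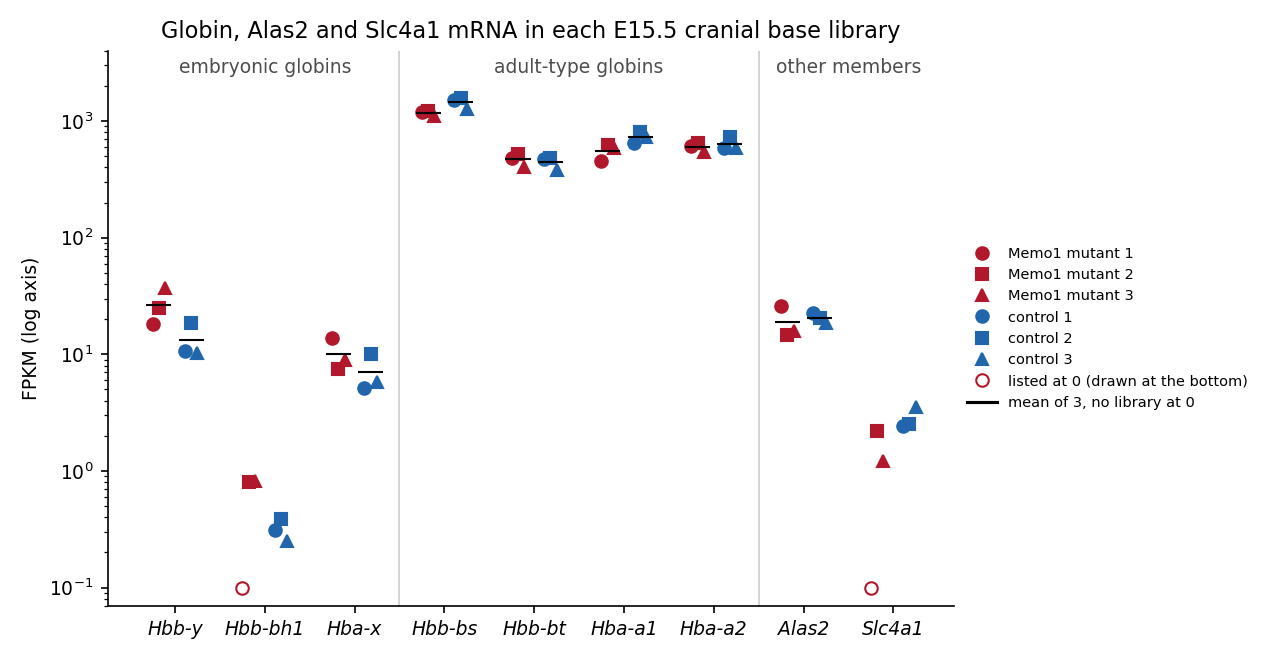
FPKM on a log axis of the 3 embryonic globins, the 4 adult-type globins, Alas2 and Slc4a1 in each library, mutants in red left of controls in blue; black lines are means of 3, drawn where no library is at 0, and open symbols are values listed at 0. Adult-type globins lie between 379.7 and 1579.2 FPKM, Hbb-y between 10.2 and 37.0 FPKM, and Hbb-bh1 below 1 FPKM in every library.

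The promoters are shown for 1 embryonic and 1 adult-type gene of each cluster, because the comparison turns on these 2 kinds of gene. They are the 200 bases upstream of the start site from RefSeq's GRCm38.p6, which is not the build of the deposited table. Of the 7 matched members 5 had a promoter there. Capitals mark CACCC (the box bound by the erythroid factor Klf1), CCAAT (a box of many promoters), TGACC (part of a nuclear receptor site) and the forms bound by GATA factors, which are AGATAA with its variant AGATAG and TGATAA with its variant TGATAG, each on either strand, and boxes of the TATA type, which are TATAA or else ATAAAA, on the gene's strand only.
Hbb-y, chr7:103853208-103853407, minus strand: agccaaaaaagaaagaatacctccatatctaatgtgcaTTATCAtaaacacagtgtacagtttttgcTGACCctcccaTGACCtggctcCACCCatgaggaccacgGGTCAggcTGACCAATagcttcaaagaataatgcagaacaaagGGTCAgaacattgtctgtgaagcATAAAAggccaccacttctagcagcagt
Hbb-bs, chr7:103827929-103828128, minus strand: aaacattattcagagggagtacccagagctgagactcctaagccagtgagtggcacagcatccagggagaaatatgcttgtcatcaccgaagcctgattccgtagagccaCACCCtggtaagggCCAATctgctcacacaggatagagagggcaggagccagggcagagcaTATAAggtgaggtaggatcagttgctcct
Hba-x, chr11:32276400-32276599, plus strand: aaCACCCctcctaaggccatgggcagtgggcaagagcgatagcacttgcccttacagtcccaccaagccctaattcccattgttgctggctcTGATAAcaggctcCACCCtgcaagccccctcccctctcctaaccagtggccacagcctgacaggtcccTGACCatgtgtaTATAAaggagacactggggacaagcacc
Hba-a1, chr11:32283472-32283671, plus strand: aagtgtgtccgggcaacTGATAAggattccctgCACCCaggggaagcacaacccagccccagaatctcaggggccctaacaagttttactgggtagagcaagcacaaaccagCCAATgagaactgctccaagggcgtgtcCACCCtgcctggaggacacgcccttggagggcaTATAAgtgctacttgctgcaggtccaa

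All 4 windows hold CACCC and a TATA-type box, which 45.7% and 17.4% of 32505 promoter windows of this length hold. CCAAT stood in the windows of Hbb-y, Hbb-bs and Hba-a1, and in 29.3% of all. The windows of Hbb-y, Hba-x and Hba-a1 held a GATA motif, as did 21.3% of all. TGACC matched 5 times in Hbb-y, 1 of them overlapping the CCAAT, and 1 time in Hba-x, and 29.5% of all windows held it. The window of the adult-type gene Hbb-bt, not shown, also held 1 match, so TGACC was not confined to the embryonic genes. These are letter matches and not measured sites.

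How well the rows can be told apart depends on their sequence. The coding sequences of Hba-a1 and Hba-a2 were 99.8% identical over 429 bases, and 67.5% of the 50-base windows of the Hba-a1 transcript stood in that of Hba-a2. Hbb-bs and Hbb-bt were 99.8% identical over 444 bases, and 65.8% of the windows of Hbb-bs stood in Hbb-bt. The split of either pair is therefore uncertain, and their sums are the firmer values. Hbb-y was 74.3% identical to Hbb-bs and 76.4% to Hbb-bh1, and Hba-x 64.1% to Hba-a1, with 0 shared windows in each pair.

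Hbb-y (ENSMUSG00000052187), the embryonic beta-like globin epsilon-y, was the member with the largest positive difference. It had 18.1, 24.7 and 37.0 FPKM in mutants 1, 2 and 3, against 10.7, 18.7 and 10.2 FPKM in controls 1, 2 and 3. Mutants 2 and 3 lay above every control, and mutant 1, the library with the many zeros, lay just under control 2. The mean was 26.6 ± 9.57 FPKM in mutants and 13.2 ± 4.77 FPKM in controls (SD, n = 3 each). The log2 change, mutant minus control on the log2(FPKM + 1) scale, was 0.95 with SE 0.34 and did not pass over all genes (limma adjusted p = 0.695). With array weights, which give mutant 1 a weight of 0.0329 against 1.47 to 2.76 for the others, it was 1.23 with SE 0.262 (limma adjusted p = 0.0622). Without mutant 1 it was 1.19 with SE 0.288 (limma adjusted p = 0.136). Over the alternatives tried the adjusted p of Hbb-y ranged from 0.0622 to 0.872. In the authors' deposited table Hbb-y had a p-value of 0.0702 and a q-value of 0.474.

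The embryonic member of the alpha cluster differed less. Hba-x (ENSMUSG00000055609), which codes for zeta-globin, had 13.9, 7.42 and 9.02 FPKM in mutants 1, 2 and 3, against 5.19, 10 and 5.81 FPKM in controls 1, 2 and 3. Control 2 lay above 2 of the 3 mutants, so the groups overlapped. The log2 change was 0.48 with SE 0.329 (limma adjusted p = 0.695), and without mutant 1 it was 0.25 with SE 0.257 (limma adjusted p = 0.666). Hbb-bh1 (ENSMUSG00000052217), the beta-h1 gene of early primitive cells, was listed at 0 in mutant 1 and had 0.8 and 0.819 FPKM in mutants 2 and 3, against 0.311, 0.387 and 0.249 FPKM in the controls. Mutants 2 and 3 were above all controls. They were also the deepest libraries, and the gene was under the 1 FPKM asked for and was not tested. A value of 0 in mutant 1 says little at this level, given the share of such entries it lists at 0.

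Of the adult-type globins, Hbb-bs and Hba-a1 lay below the controls without overlap, as did 11.9% of all tested entries. Their near copies overlapped, and so did the sum of each pair. Hbb-bs (ENSMUSG00000052305), the adult beta gene with the higher level, had 1197.5, 1206.8 and 1093.9 FPKM in mutants 1, 2 and 3, against 1501.6, 1579.2 and 1270.2 FPKM in controls 1, 2 and 3. Every mutant lay below every control. The log2 change was -0.31 with SE 0.101 (limma adjusted p = 0.695), and with array weights -0.36 with SE 0.0959 (limma adjusted p = 0.102). In the authors' deposited table its p-value was 0.0422 and its q-value 0.399. Hbb-bt (ENSMUSG00000073940), its near copy, had 481.7, 522.2 and 405.5 FPKM in the mutants, against 474.6, 483.8 and 379.7 FPKM in the controls, and these ranges overlapped almost fully. Summed, adult beta-globin was 1635.9 ± 120.8 FPKM in mutants and 1896.4 ± 217.8 FPKM in controls (SD, n = 3 each), with overlap.

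Hba-a1 (ENSMUSG00000069919) had 455.1, 626.2 and 587.4 FPKM in mutants 1, 2 and 3, against 649.2, 802.9 and 723.1 FPKM in controls 1, 2 and 3, without overlap. Its log2 change was -0.39 with SE 0.149 (limma adjusted p = 0.695) and moved to -0.25 without mutant 1 (limma adjusted p = 0.301). Hba-a2 (ENSMUSG00000069917) had 614.4, 642.3 and 536.9 FPKM in the mutants, against 585.6, 725.5 and 586.5 FPKM in the controls, with overlap. Adult alpha-globin summed to 1154.1 ± 102.8 FPKM in mutants and 1357.6 ± 152.5 FPKM in controls (SD, n = 3 each), and mutant 2 lay above control 1. Within each near-identical pair the ranges of the split did not overlap between the groups, and this was not tested. Hbb-bs held 69.8% to 73.0% of adult beta-globin FPKM in mutants and 76.0% to 77.0% in controls. Hba-a1 held 42.6%, 49.4% and 52.2% of adult alpha-globin FPKM in mutants 1, 2 and 3 and 52.5% to 55.2% in controls. The alpha ranges nearly met, and mutant 1 lay farthest from the controls. The alpha pseudogene Hba-ps4 had 33.9, 28.5 and 15.7 FPKM in mutants 1, 2 and 3, against 16.0, 14.3 and 9.78 FPKM in controls 1, 2 and 3. How the authors' counting assigned fragments that fit 2 copies was not tested. The ratio of adult alpha to adult beta FPKM was 0.637 to 0.75 in mutants and 0.625 to 0.794 in controls.

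Of the 6 members tested, 0 passed at an adjusted p of 0.05, where limma called 0 of 15710 entries (0.0%) with 805 (5.12%) at an unadjusted p under 0.05. With array weights 0 of 6 passed, where 320 entries (2.04%) did, 0.719% higher and 1.32% lower in mutants. Without mutant 1 the members called were 0 of 6, where 7 entries (0.0446%) were called, 0.0127% higher and 0.0318% lower in mutants. Mutants lay below controls without overlap in 2 of the 6, Hba-a1 and Slc4a1, where 11.9% of entries did so. Mutants lay above controls in 0 of 6, where 8.98% of entries did, and 20.9% of entries did not overlap in either direction.

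**Figure D2:**
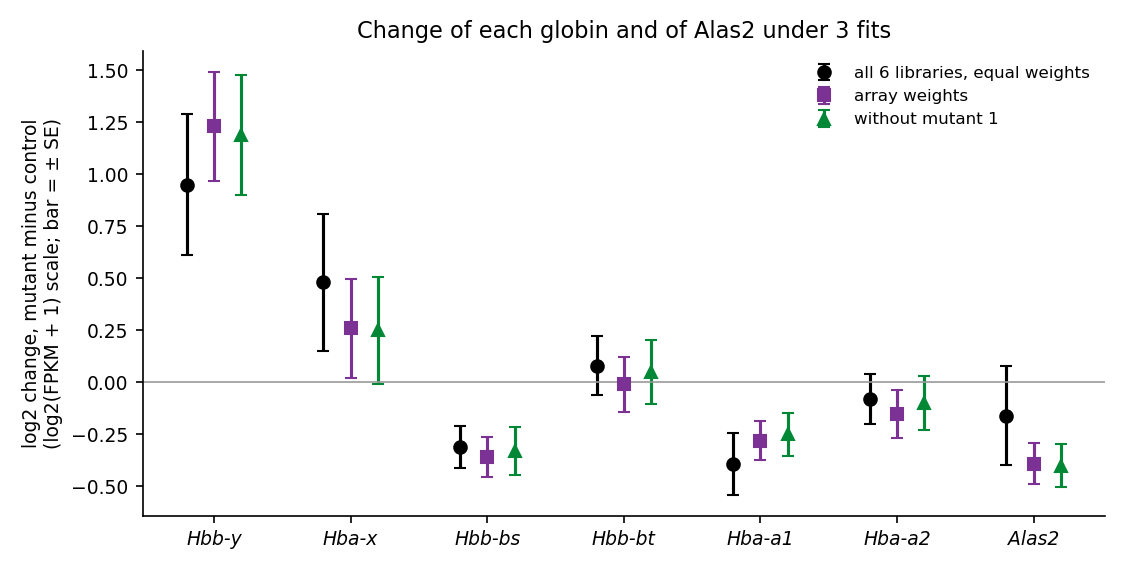
Log2 change (mutant minus control, log2(FPKM + 1) scale, bars ± SE) of Hbb-y, Hba-x, the 4 adult-type globins and Alas2 with all 6 libraries at equal weight, with array weights and without mutant 1. Hbb-y is at 0.95 to 1.23 in all 3 fits, while Hbb-bs is at -0.36 to -0.31.

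Set against the adult chains of the same library, the embryonic beta-like chains were higher in every mutant. The share sets these globins against others of the same library, so a total amount of globin mRNA common to all cancels. Hbb-y and Hbb-bh1 made up 1.07%, 1.45% and 2.46% of beta-like globin FPKM in mutants 1, 2 and 3, against 0.556%, 0.916% and 0.627% in controls 1, 2 and 3. The groups did not overlap, and among single tested entries 8.98% lay above the controls without overlap. The lowest mutant share was that of mutant 1, the library with the many zeros, in which Hbb-bh1 was listed at 0. The means were 1.66% ± 0.718 in mutants and 0.7% ± 0.191 in controls (SD, n = 3 each), a difference of 0.961 percentage points. Without mutant 3, the highest library, the difference was 0.561 percentage points. Among embryos that share the first word of their titles, mutant 1 had 1.92 times the share of control 1, and mutant 3 had 3.19 times the mean share of controls 2 and 3. No control shares that word with mutant 2. For Hbb-y itself these ratios were 1.69 and 2.56, and for Hbb-bs 0.798 and 0.768. Beside this share the summed cartilage markers were higher in every mutant too, mutant 3 was the only female and the deepest library, and the part of these in the share was not tested.

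In the alpha cluster the groups overlapped. Hba-x made up 1.28%, 0.581% and 0.796% of alpha-like globin FPKM in mutants 1, 2 and 3, against 0.418%, 0.653% and 0.442% in controls 1, 2 and 3. The means were 0.887% ± 0.359 in mutants and 0.504% ± 0.129 in controls (SD, n = 3 each). The difference of 0.382 percentage points came to 0.184 without mutant 1. Among embryos that share the first word of their titles, mutant 1 had 3.07 times the alpha share of control 1. Mutant 3 had 1.45 times the mean alpha share of controls 2 and 3. For Hba-x itself these ratios were 2.68 and 1.14. Over both clusters the embryonic share was 1.15%, 1.09% and 1.75% in mutants 1, 2 and 3, against 0.503%, 0.804% and 0.545% in controls 1, 2 and 3. As scores over members these shares have no p-value.

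**Figure D3:**
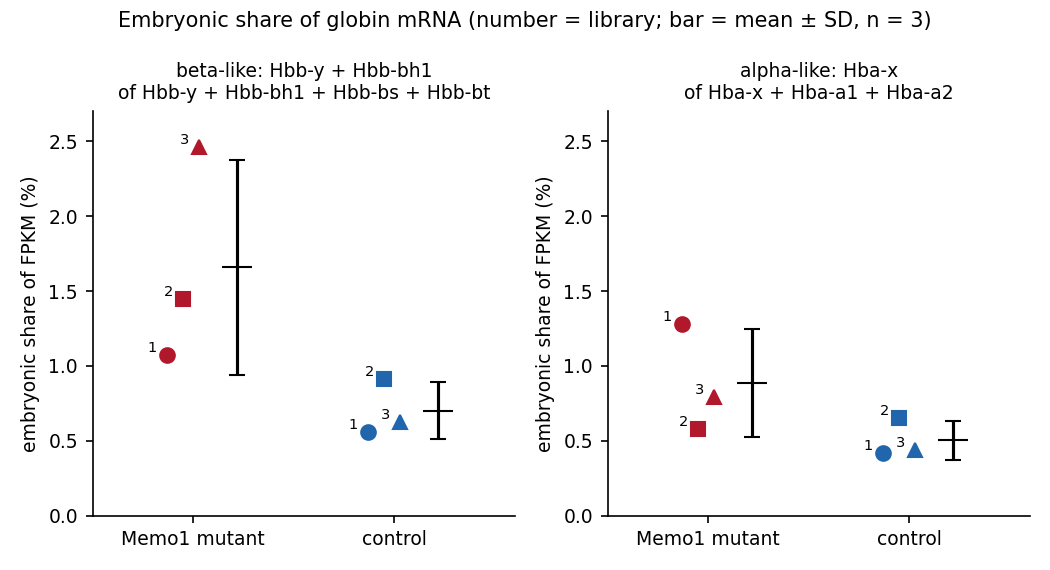
Embryonic share (%) of beta-like FPKM on the left and of alpha-like FPKM on the right, with each library as a numbered point and mean ± SD (n = 3) beside it, mutants left of controls. The beta-like share of each mutant, from 1.07% up, lies above that of each control, up to 0.916%, while the alpha-like shares overlap.

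The ratio of the embryonic chains varied more among the mutants. Hbb-y was 1.3, 3.33 and 4.1 times Hba-x in mutants 1, 2 and 3, against 2.07, 1.86 and 1.75 times in controls 1, 2 and 3. The controls lay close together, while mutants 2 and 3 lay above and mutant 1 below them. Mutant 1 had the highest Hba-x of all libraries and the lowest Hbb-y of the mutants. Among entries of 5 to 50 FPKM, the log2 ratio of mutant 1 to the mean of the other 5 had an interquartile range of 1.19, against 0.31 for mutant 2 and the mean of the other 4.

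Alas2 (ENSMUSG00000025270), the erythroid enzyme of the first step of haem synthesis, is on the X chromosome. It had 25.9, 14.6 and 15.7 FPKM in mutants 1, 2 and 3, against 22.4, 20.3 and 18.5 FPKM in controls 1, 2 and 3. Mutants 2 and 3 lay below every control and mutant 1 above every one. The log2 change was -0.16 with SE 0.239 (limma adjusted p = 0.757). Without mutant 1 it was -0.40 with SE 0.105 (limma adjusted p = 0.151), and with array weights -0.39 with SE 0.0982 (limma adjusted p = 0.0937). Hbb-y was 0.7, 1.69 and 2.36 times Alas2 in mutants 1, 2 and 3, against 0.479, 0.92 and 0.55 times in controls 1, 2 and 3, with overlap. Hba-x was 0.507 to 0.575 times Alas2 in mutants and 0.231 to 0.494 times in controls, without overlap. Among single tested entries 8.98% lay above the controls without overlap. Adult-type globin was 106.1 to 204.7 times Alas2 in mutants and 143.3 to 176.8 times in controls.

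Slc4a1 (ENSMUSG00000006574), band 3, the anion exchanger of the red cell membrane, was low. It was listed at 0 in mutant 1 and had 2.22 and 1.22 FPKM in mutants 2 and 3, against 2.42, 2.55 and 3.52 FPKM in controls 1, 2 and 3. Each mutant lay below each control (limma adjusted p = 0.695, and 0.194 with array weights). Of 4725 entries with 1 to 5 FPKM in the other libraries, 55.8% were listed at 0 in mutant 1, against 0.677% in mutant 2.

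Genes of haem synthesis other than Alas2 are also used outside red cells. Of the 9 on the list 9 were tested and 0 passed, with 3 above and 6 below 0 and a median log2 change of -0.16, against -0.05 over all 15710 entries. Alad, which makes porphobilinogen, had 15.9, 23.0 and 23.2 FPKM in mutants 1, 2 and 3, against 26.5, 27.2 and 24.9 FPKM in controls 1, 2 and 3. The mutants lay below the controls without overlap (limma adjusted p = 0.695, and 0.263 with array weights). Ppox, a later enzyme, lay above the controls, with 75.3, 17.0 and 16.0 FPKM in the mutants against 15.3, 14.8 and 13.7 FPKM in the controls, most of it in mutant 1. Of the 7 iron and haem transport genes tested, Tfrc, the transferrin receptor, had 5.33, 8.07 and 9.46 FPKM in the mutants and 10.4, 10.6 and 10.6 FPKM in the controls (limma adjusted p = 0.695). None of these 7 passed, and their median log2 change was 0.13, or -0.04 without mutant 1.

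Of the membrane genes tested, 1 of 10 was called with array weights, lower in mutants, where 1.32% of all tested entries were, and 0 of 10 with equal weights or without mutant 1. The table held 18 entries of the list, of which 10 were tested, with 5 above and 5 below 0 and a median log2 change of -0.01. This median moved to -0.16 without mutant 1 and to -0.17 with array weights, and to 0.236 with a mean of at least 5 FPKM asked for. Ank1, the ankyrin that ties band 3 to spectrin and that skeletal muscle also makes, had 55.5, 42.2 and 41.2 FPKM in mutants 1, 2 and 3, against 62.8, 64.7 and 80.4 FPKM in controls 1, 2 and 3. Each mutant lay below each control (limma adjusted p = 0.695), and with array weights Ank1 fell (log2 change -0.70, limma adjusted p = 0.0292, range over the alternatives 0.0292 to 0.872). Slc14a1, a urea transporter of red cells, lay the other way. It had 4.51, 3.49 and 2.35 FPKM in the mutants against 1.2, 1.26 and 0.907 FPKM in the controls (limma adjusted p = 0.695, and 0.0601 with array weights).

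Of 8 entries for erythroid transcription factors 5 were tested and 0 passed, with a median log2 change of -0.32, or 0.03 without mutant 1. Levels ranged widely among them. Gata1 was at most 0.337 FPKM and Klf1 at most 0.75 FPKM in any library, both listed at 0 in mutant 1, and neither was tested. Ldb1, a partner of these factors that many tissues make, had 123.0, 123.6 and 108.7 FPKM in mutants 1, 2 and 3, against 106.9, 108.3 and 101.8 FPKM in controls 1, 2 and 3 (limma adjusted p = 0.695). Of 8 tested genes that have been tied to the switch between globins 0 passed, and their median log2 change was -0.14, or -0.02 without mutant 1. Bcl11a, a repressor of embryonic and fetal globin genes, had 2.95, 6.16 and 6.22 FPKM in the mutants, against 7.26, 6.13 and 5.68 FPKM in the controls. Zbtb7a, another such repressor, had 11.8, 10.2 and 8.69 FPKM in the mutants, against 7.91, 7.94 and 9.62 FPKM in the controls. Sox6, which silences Hbb-y in definitive red cells and is also a cartilage factor, had 9.52, 8.77 and 8.53 FPKM in the mutants, against 8.5, 8.17 and 8.33 FPKM in the controls. It was named after its values were seen, as the 1 of 8 tested genes of the list without overlap, where 20.9% of all tested entries did not overlap. In a cartilage sample the levels of factors that other cells also make cannot be read as those of red cells.

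Of 15 tested genes among 24 other erythroid entries 0 passed, with 8 above and 7 below 0 and a median log2 change of 0.03. Prdx2, the peroxiredoxin abundant in red cells, had 167.5, 282.9 and 277.8 FPKM in mutants 1, 2 and 3, against 325.2, 321.7 and 298.9 FPKM in controls 1, 2 and 3 (limma adjusted p = 0.695, and 0.218 with array weights). Tmcc2 lay above the controls, with 26.0, 20.0 and 19.4 FPKM in the mutants against 18.2, 17.3 and 14.3 FPKM in the controls (limma adjusted p = 0.695).

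Genes of macrophages, which handle haem and iron from red cells, differed among themselves. Of 10 tested, 5 lay above and 5 below 0, with a median log2 change of -0.01, or -0.16 without mutant 1. Slc40a1 and Vcam1 lay above the controls without overlap, as did 8.98% of all tested entries. C1qb and Emr1 lay below without overlap, as did 11.9%. Slc40a1, the iron exporter ferroportin, had 39.4, 31.3 and 28.3 FPKM in mutants 1, 2 and 3, against 15.4, 22.3 and 20.4 FPKM in controls 1, 2 and 3, without overlap (limma adjusted p = 0.695, and 0.0855 with array weights). Hmox1, the haem oxygenase, had 17.8, 27.0 and 31.2 FPKM in the mutants, against 18.7, 18.8 and 22.2 FPKM in the controls. With array weights Hmox1 rose (log2 change 0.56, limma adjusted p = 0.0479, range over the alternatives 0.0479 to 0.872). It was the 1 of 10 tested macrophage genes called so, where 0.719% of all tested entries were called higher. With equal weights or without mutant 1, 0 of 10 were called. C1qb, a complement gene of macrophages, had 37.6, 47.9 and 37.2 FPKM in the mutants and 49.8, 52.6 and 59.9 FPKM in the controls (limma adjusted p = 0.695). Its partners C1qa and C1qc overlapped. C1qa had 59.6, 39.4 and 37.8 FPKM in the mutants and 39.4, 41.7 and 42.6 FPKM in the controls. C1qc had 49.9, 39.0 and 35.4 FPKM in the mutants and 37.5, 38.4 and 43.9 FPKM in the controls. The 11 macrophage entries summed to 224.0 to 281.3 FPKM in mutants and 218.1 to 250 FPKM in controls.

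**Figure D4:**
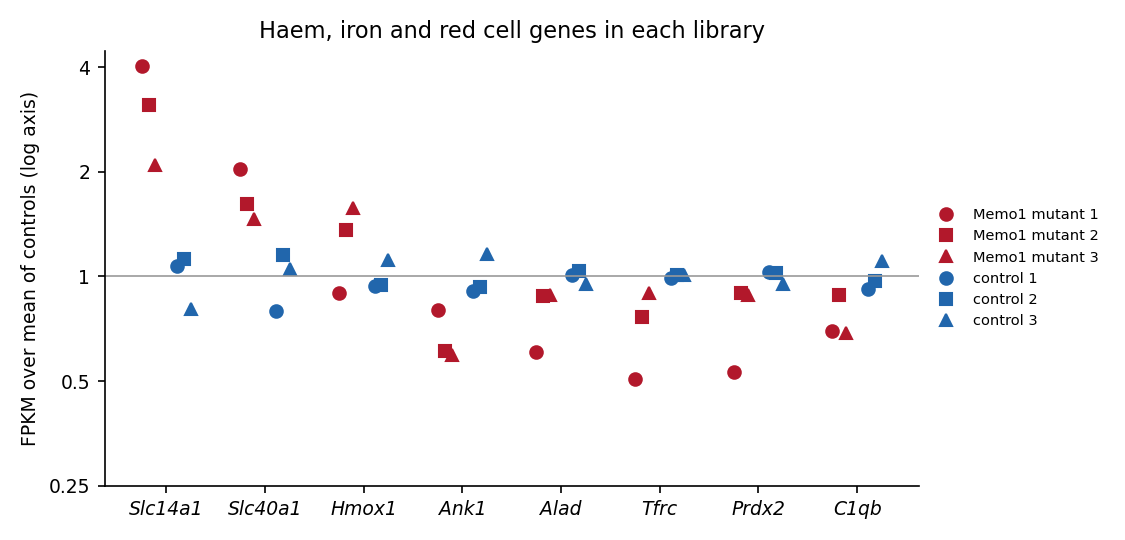
FPKM of 8 haem, iron, red cell and macrophage genes in each library over the mean of the 3 controls, on a log axis, mutants in red left of controls in blue. Slc14a1 and Slc40a1 lie above 1 in the 3 mutants and Ank1, Alad, Tfrc, Prdx2 and C1qb below 1, with mutant 1 often the farthest.

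Markers of other blood and tissue cells were read beside the globins. Pf4, a platelet and megakaryocyte gene, was listed at 0 in mutant 1 and had 11 and 11.5 FPKM in mutants 2 and 3, against 31.3, 23.9 and 31.3 FPKM in controls 1, 2 and 3. With array weights Pf4 fell (limma adjusted p = 0.0336, range over the alternatives 0.0336 to 0.872). It was the 1 of 3 tested platelet genes called so, where 1.32% of all tested entries were called lower. With equal weights or without mutant 1, 0 of 3 were called. The 8 neutrophil genes summed to 59.3, 107.3 and 41.4 FPKM in mutants 1, 2 and 3, against 39.1, 88.8 and 21.2 FPKM in controls 1, 2 and 3. In mutant 1 the sum came only from Camp at 41.9 FPKM and Ngp at 17.4 FPKM. The rest of the neutrophil genes were listed at 0 there, so its sum is not like the others. Mutant 2 and control 2 were high in the neutrophil genes, while Hbb-y was highest in mutant 3. The 8 platelet genes summed to nearly 0 in mutant 1 and to 19.0 and 21.1 FPKM in mutants 2 and 3, against 33.0 to 41.4 FPKM in the controls. Pf4 was most of this sum in mutants 2 and 3 and in the controls. Gp1bb, nearly 0 in mutant 1, had 2.96 and 3.26 FPKM in mutants 2 and 3, above the 2.09, 2.73 and 2.77 FPKM of the controls. Itga2b, listed at 0 in mutant 1, had 3.25 and 5.22 FPKM in mutants 2 and 3. It overlapped the controls, at 5.19, 4.21 and 5.39 FPKM. The 9 endothelial genes summed to 269.1 to 288.3 FPKM in mutants and 239.8 to 263.7 FPKM in controls. Cartilage markers lay above the controls without overlap in 8 of 10, where 8.98% of all tested entries did so. With array weights 3 of 10 were called higher, where 0.719% of all tested entries were. These were Sox9, Lect1 and Acan (limma adjusted p = 0.0332, 0.0352 and 0.0491, each up to 0.872 over the alternatives). With equal weights or without mutant 1, 0 of the 10 cartilage markers were called. The part of these cell types in the globin differences was not tested.

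**Figure D5:**
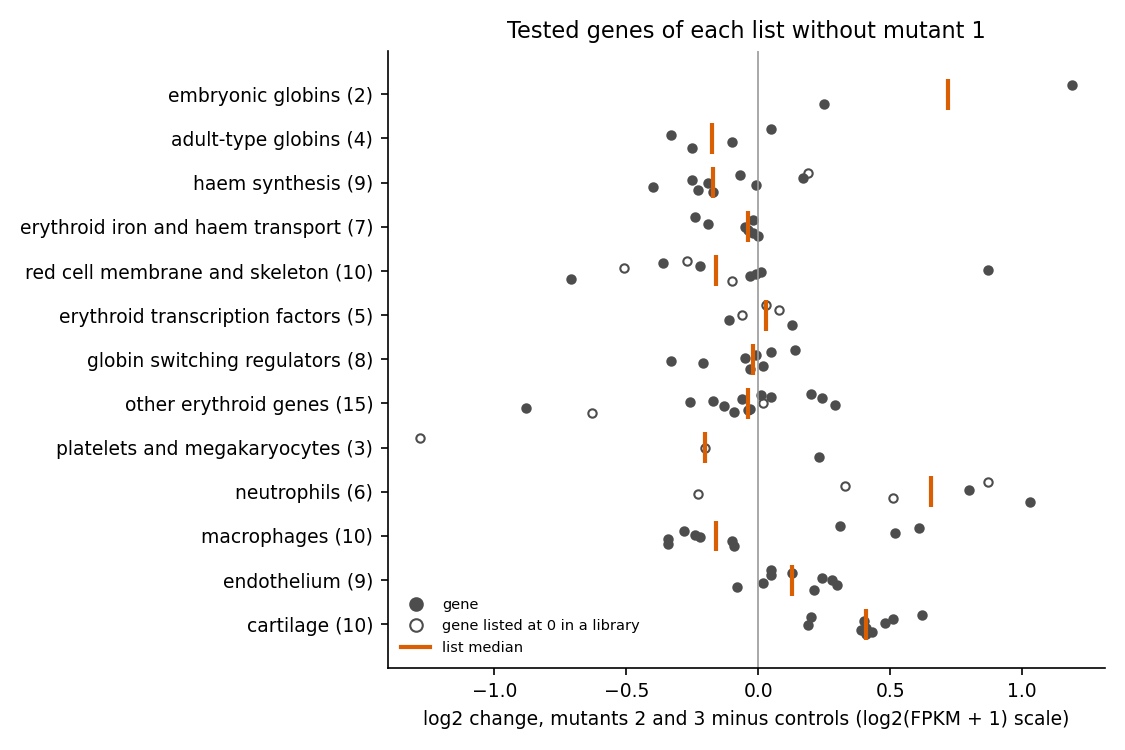
Log2 change of the tested genes of each list in mutants 2 and 3 against the 3 controls (log2(FPKM + 1) scale), with the list median in orange and open circles for genes listed at 0 in a library; the number of genes is in brackets. Hbb-y lies at 1.19, above every erythroid gene outside the globins, and the medians of the other erythroid lists lie between -0.17 and 0.03.

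The genes most like Hbb-y were sought over the 6 libraries. Among 12235 tested entries above 0 in all libraries, the 5 highest Pearson r of log2(FPKM + 1) with Hbb-y included those of C1qtnf2 (0.992), Cytl1 (0.99), Creb3l2 (0.974) and Zfp623 (0.97). Cytl1, a secreted protein of chondrocytes, had 64.7, 75.7 and 101.5 FPKM in mutants 1, 2 and 3, against 48.4, 60.8 and 42.3 FPKM in controls 1, 2 and 3. The other globins were farther from Hbb-y, with r of 0.519 for Hba-x, -0.581 for Hbb-bs and -0.29 for Hba-a1. For Alas2 the nearest were Ckap2l (0.989), Magi2 (0.987), Crcp (0.986), Gtf2e1 (0.985) and Dnttip2 (0.984), all highest in mutant 1 as Alas2 was. With 6 points from libraries that differ in depth and quality, and 12235 entries searched, such r are a description.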

How the data were processed

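Per the labels' protocols, cranial base was dissected at E15.5 and kept in RNAlater until genotyping, and Illumina libraries were made from RNA of a Norgen kit. The authors deposited 1 table of FPKM values; the submitters' processing notes name Cufflinks and mm9, and the unit was inferred from that tool and the values. How reads were aligned, which annotation was used and how fragments matching several genes were handled is not stated there. Of the authors' own comparison the deposited table holds a fold, with a minus sign for a decrease and so read as a score, a p-value and a q-value, whose test is unnamed. The code 999999999 was treated as missing, which removed 15 entries.

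Entries with a mean of at least 1 FPKM entered a linear model of genotype alone on log2(FPKM + 1) values (limma, version 3.58.1, under R version 4.3.3; eBayes with a mean trend, robust), with Benjamini-Hochberg adjustment at 0.05 over all 15710 entries. The log2(FPKM + 1) scale understates the change of low genes. Genes listed at 0 in a library are given without mean or fold change. The test was tried on simulated data. Relative depth is the most common ratio to control 1 among entries below 0.1 FPKM there, where at least 100 lay within 2%. The embryonic beta share had been set up with Hbb-b1 and Hbb-b2, and Hbb-bs and Hbb-bt replaced them. Replicates are separate embryos by their titles, numbered in accession order, which pairs none; that the first title word marks a litter or batch is not stated. Named genes were the members, up to 4 genes of each list, by lowest p and not all printed, and the 5 genes most like Hbb-y and Alas2. Values of some of these genes are not reported here. Gata1, Klf1, Sox6, Hmox1, C1qa, C1qc, Acan, Alb and Afp were named after their values were seen. The members and lists were chosen with earlier results of these data known. Motif shares were counted over RefSeq promoter windows, and identities over the longest reading frames of GENCODE transcripts.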

Additional observations from a re-analysis of the deposited data

How the results depend on the processing

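limma called 320 genes with array weights and 1 with quantile normalization, and 0 to 7 when 1 library was left out, 7 of them without mutant 1. Over 25 genes and 348 alternatives, 340 kept their direction and their side of the threshold, 5 turned direction and 3 passed (Ank1, Hmox1 and Pf4, each with array weights). The cartilage markers were not among these 25 genes. Hba-a2 turned to 0.025 without control 2, and Hbb-bt turned to -0.014 with array weights, to -0.036 with the title word as a fixed block and, as single libraries were left out, spanned -0.036 to 0.177; Hba-a2 spanned -0.132 to 0.025. The mutant minus control difference in the embryonic beta share was 0.561 to 1.26 percentage points as single libraries were left out, and that in the alpha share 0.184 to 0.535. The median log2 change of the neutrophil list was -0.58 with all libraries and 0.66 without mutant 1. Under limma the title word as a random effect (consensus correlation 0.108, statmod 1.5.0) called 0 genes, with 915 at an unadjusted p under 0.05. As a fixed block, which was chosen after seeing the data and in which mutant 2 adds nothing to the difference because no control has its word, it called 0 genes, with 611 at an unadjusted p under 0.05, and the log2 change of Hbb-y was 1.08 (limma adjusted p = 0.598). Replicate numbers follow accession order and were not used as a block. The zeros of mutant 1 limit the low genes most.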

Other observations

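Further entries of the globin family were read as well. Hbb-bh0, Hbb-bh2 and Hbb-bh3 were listed at 0 in all 6 libraries. The theta-globin genes Hbq1a and Hbq1b reached at most 0.41 and 0.622 FPKM in any library. Mb, the myoglobin of muscle, was listed at 0 in mutant 1 and had 6.11 and 4.58 FPKM in mutants 2 and 3, against 8.51, 9.31 and 9.2 FPKM in controls 1, 2 and 3. Cygb, the cytoglobin of fibroblasts and related cells, had 11.7, 11 and 12.4 FPKM in the mutants, against 12.9, 11.5 and 13.4 FPKM in the controls, and the groups overlapped. Ttr, a gene of the choroid plexus and liver, was 58.3 FPKM in control 2 and at most 0.519 FPKM in the other 5 libraries. Control 2 also had the highest Hbb-y, Hbb-bh1, Hba-x, Hba-a1, Hba-a2, Hbb-bs and Hbb-bt of the controls.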
